A study of Schizosaccharomyces pombe with 15 samples.

Results

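Late-induced genes after plasma were taken from RNA sequencing counts of fission yeast (Schizosaccharomyces pombe). They are the 52 of 6998 listed genes that met a rule on mean CPM. CPM is a gene's count relative to the library total, after TMM scaling, edgeR's adjustment for differences in RNA composition. The mean was at least 2 times that without irradiation in the plasma 30 min group and below 1.5 times at 10 min. It was also at least 1.5 times the 10 min value at 30 min. Genes with an overall mean CPM under 5 or an identifier starting with SPNCRNA were left out. The libraries without irradiation and at 10 and 30 min chose the members, so all values in these 3 groups are a description with no test. The values at 15 min and after hydrogen peroxide (H2O2) entered only the minimum on the overall mean.

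The study sequenced RNA of strain JY450, a wild type, in 5 groups of 3 libraries that the series text calls biological replicates. Groups were cells without irradiation, cells titled plasma at 10, 15 and 30 min, and cells given H2O2. Plasma is an ionised gas that forms reactive oxygen and nitrogen species. The titles do not say whether the minutes count from the irradiation or are its length. All cells were grown in YE, a rich medium. Per the labels, cells in log or stationary phase were placed on a filter on agar for irradiation. Which phase these samples had, how strong the plasma was, how much H2O2 was given for how long, and when control cells were taken is not stated in those labels. The effect of plasma therefore cannot be told apart from that of time on the filter.

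Fission yeast meets peroxide mainly through a pair of regulators. The stress kinase Sty1 acts through the transcription factor Atf1 and sets off a broad early response, while the transcription factor Pap1, once oxidised, stays in the nucleus and turns on genes for thiol-based repair, glutathione S-transferases and drug efflux pumps. Genes for nitrogen uptake, iron uptake and vacuolar proteolysis are known mainly from starvation, and sterol and haem genes from low oxygen, through the factor Sre1.

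Library totals ran from 14691752 to 23232575 counts, and 5214 genes, all 52 members among them, had enough counts for the tests. Library b without irradiation stood apart in chaperone genes, with hsp104, a disaggregase gene, at 737 CPM against 209 and 185 in the other libraries of its group. Library a at 15 min stood apart among the members, whose CPM there was at the median 1.09 times the mean of the other 2 libraries of its group, with hsp104 at 201 against 356 and 328 CPM. At 10 min library b was at 1.11 and library a at 0.924 by the same measure, and 67 genes met the rule without the former and 45 without the latter. Means are given with the SD over 3 libraries (n = 3), and fold changes on the log2 scale with their SE. Ribosomal RNA genes took 0.0485 to 1.28% of counts. The summed level of the 27 markers of mating and meiosis was 893 to 1063 CPM without irradiation, 1076 to 1145 at 10 min, 1192 to 1233 at 15 min, 1244 to 1307 at 30 min and 1228 to 1275 after H2O2, with 4 markers at 0 in every library. The part of this difference in the results was not tested.

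Promoters are shown for 3 of the 5 members that hold the letters TTAGTAA, which resemble sites bound by Pap1 and related factors. Those of SPAC1399.01c and mmt1, which also hold them, are not shown. Each stretch is the 250 bases before the outermost annotated start, read on the + strand from the RefSeq genome ASM294v3, with TTAGTAA in capitals. They belong to rib4 (chrII:1165164-1165413), SPAC750.01 (chrI:5555424-5555673) and plr1 (chrI:4461447-4461696).
rib4: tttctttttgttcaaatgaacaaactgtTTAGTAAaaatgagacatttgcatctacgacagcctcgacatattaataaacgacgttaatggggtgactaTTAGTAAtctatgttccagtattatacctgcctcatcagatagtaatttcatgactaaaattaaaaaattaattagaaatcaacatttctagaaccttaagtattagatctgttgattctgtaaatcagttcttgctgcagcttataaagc
SPAC750.01: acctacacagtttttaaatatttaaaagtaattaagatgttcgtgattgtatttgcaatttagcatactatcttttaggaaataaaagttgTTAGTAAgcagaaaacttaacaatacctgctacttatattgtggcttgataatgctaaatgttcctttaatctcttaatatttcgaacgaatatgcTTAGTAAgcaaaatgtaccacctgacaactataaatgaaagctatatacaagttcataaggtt
plr1: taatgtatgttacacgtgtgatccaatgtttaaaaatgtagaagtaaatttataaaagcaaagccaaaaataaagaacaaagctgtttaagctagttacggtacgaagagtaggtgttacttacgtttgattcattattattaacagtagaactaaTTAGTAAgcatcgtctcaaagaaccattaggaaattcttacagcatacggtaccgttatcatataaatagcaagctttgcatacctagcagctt
The letters start 222 and 151 bases before the start of rib4, 159 and 63 before that of SPAC750.01, and 94 before that of plr1. Searched on both strands, TTAGTAA stood in the windows of 5 of the 51 protein-coding members (9.80%) and of 10.996% of 5111 coding genes. Of the members on the Pap1 list described below, plr1 held it, while trr1, gst2 and osr1 did not. Neither rib4 nor SPAC750.01 is on that list. The longer TTAGTAAGC, chosen after these windows were seen and contained in the shorter string, stood in 2 members (plr1 and SPAC750.01, 3.92%) and in 0.157% of coding genes. TTACGTAA, the palindrome bound by Pap1, stood in 0 members and 0.450% of coding genes. TGACGT, the core of Atf1 sites, stood in 3 (per1, SPAC186.06 and pho8, 5.88%) and 4.60%. CCCCT, the core of a stress element, stood in 7 (13.7%) and 8.002%. ATCNGATAA, the site of the iron-sensing repressor Fep1, stood in 3 (cpy1, cmt2 and mmt1, 5.88%) and 1.27%. A heat shock element of 3 alternating GAA and TTC blocks set 2 bases apart stood in 0 members and 0.274% of coding genes. A match is a description and shows no binding.

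Seen across members, the rise at 30 min was 2.01-fold to 8.0-fold over no irradiation (median 2.60), while the ratio at 10 min was 0.350 to 1.49 (median 1.2). The 30 min libraries of 51 members all lay above those without irradiation, as they did for 34.7% of the 4215 genes above the minimum mean. These 51 also lay above all 10 min libraries, as 30.3% of those genes did. SPRRNA.45, a listed copy of 18S ribosomal RNA, was the exception. Of the 4215 genes, 6.14% were at least 2 times no irradiation at 30 min. As the libraries are bulk RNA, more expressing cells and more RNA per cell cannot be told apart.

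At 15 min the same 51 members had means above those of 10 min and between those of 10 and 30 min, against 49.1 and 52.4% of the 4215 genes. The rule set the 30 min mean of every member at least 1.5 times its 10 min mean. A 15 min mean between them is therefore favoured by the choice, and these counts are a description. The ratio of 15 min to no irradiation was 0.357 to 4.27 (median 1.78), and 16 members had reached 2-fold, against 4.39% of genes. At the median 47.2% of the 30 min rise was present. By edgeR's quasi-likelihood test with Benjamini-Hochberg adjustment, 47 members were higher at 15 min than without irradiation and 0 lower, with 5 not called, against 27.1% of all tested genes higher and 24.8% lower. At an unadjusted p under 0.05 the counts were also 47 and 0, as they were with DESeq2. The 5 not called were amt1, str3, hem13, nrg1 and SPRRNA.45. The control libraries are shared with the choice of members, so this count is read as a description. All 3 libraries at 15 min lay above the controls in 47 members, as in 28.9% of tested genes. Without library a at 15 min 46 members were higher.

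After H2O2 46 members were higher than without irradiation and 0 lower (47 and 0 at an unadjusted p under 0.05 and with DESeq2), against 28.5% of tested genes higher and 25.6% lower. This comparison shares the same control libraries. The ratio to no irradiation was 0.845 to 30.4 (median 2.22), and 29 members reached 2-fold, against 5.53% of the 4215 genes. All H2O2 libraries lay above the controls in 46 members, as in 29.8% of tested genes, while 12 members had H2O2 means below 1.5 times no irradiation, against 88.4% of the 4215. The H2O2 mean was above that of 15 min in 40 members, against 49.6% of genes, and above that of 30 min in 22, against 53.7%. In 9 members H2O2 was at least 1.5 times plasma at 30 min, against 2.59% of genes, and in 16 plasma at 30 min was at least 1.5 times H2O2, against 3.23%. Members thus ranged from osr1, at 9.07 times the 30 min level after H2O2, to SPAC186.06, at 0.257 times. Without library b of the controls 1 member, ubp11, was lower after H2O2 (log2 fold change -0.35, adjusted p = 0.0182).

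**Figure D1:**
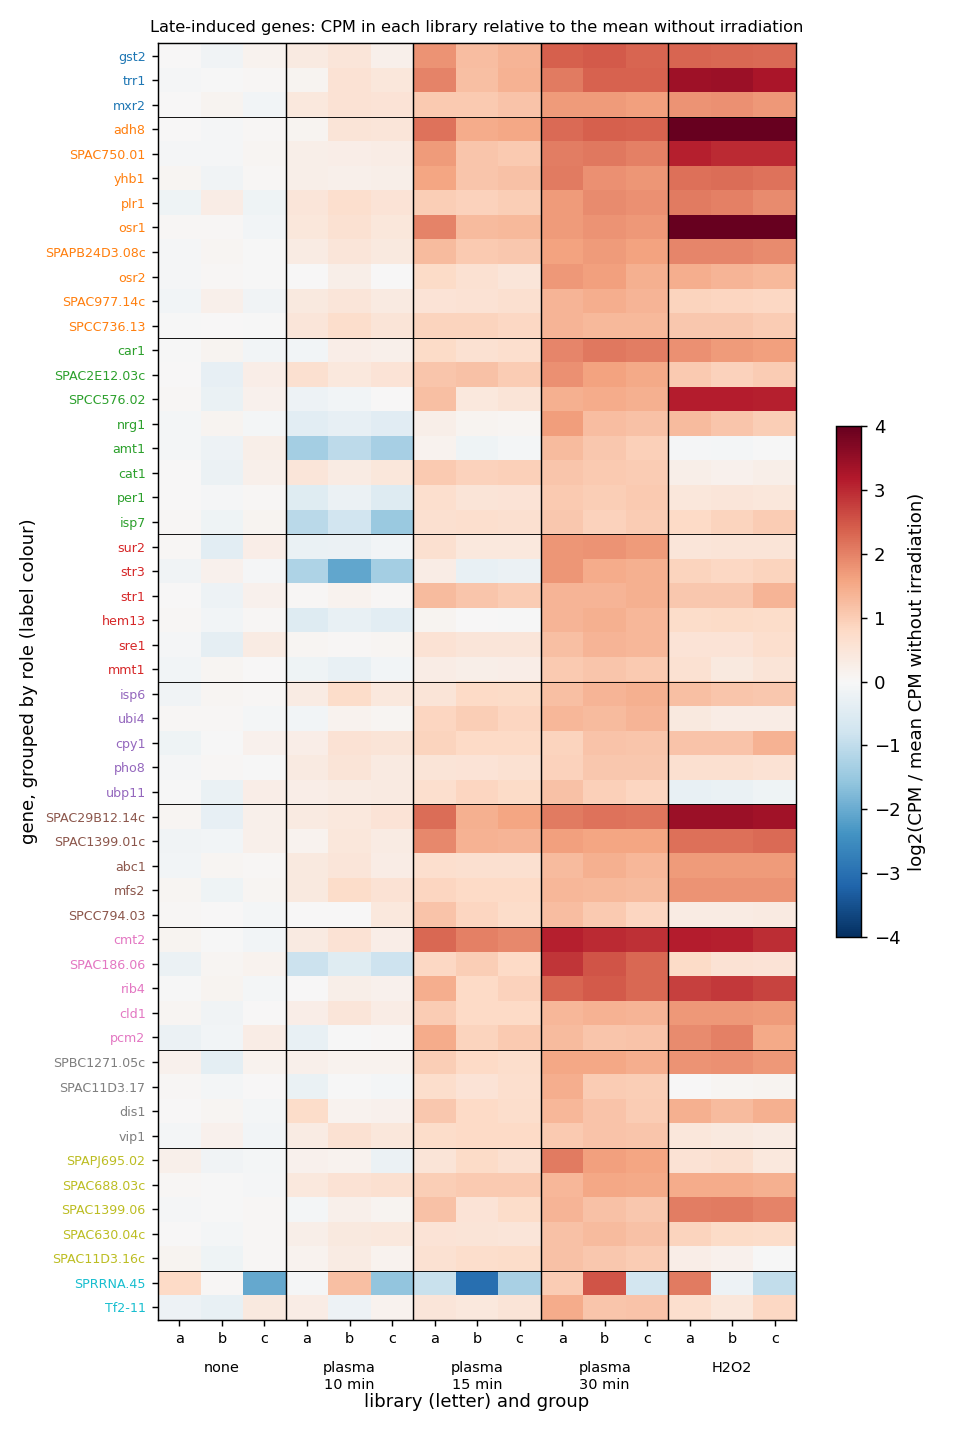
CPM of the 52 late-induced genes in the 15 libraries, drawn as log2 of the ratio to the mean without irradiation, with genes grouped by role (label colour), libraries a to c in each group, and values above 4 drawn at 4. The columns at 30 min are red for 51 genes, the row of SPRRNA.45 is mixed, and after H2O2 the rows range from the dark red of osr1 and adh8 to the pale row of ubp11.

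Plasma at 15 min against H2O2 was the comparison whose groups had no part in any ratio that chose the members. The rule did ask for a ratio below 1.5 at 10 min, in the same plasma course. Low values at 15 min are thus favoured by the choice, and the counts below are a description. By edgeR's quasi-likelihood test, 33 members were lower at 15 min than after H2O2, 7 were higher and 12 were not called, while 13.2% of the 5214 tested genes were lower and 9.9% higher. With total counts in place of TMM, 30 members were lower and 7 higher, while the calls over all tested genes went from 687 lower and 516 higher to 398 lower and 444 higher. The median log2 fold change was -0.58 over the members and 0.01 over all tested genes, with members from -3.37 to 1.01. In 34 members every 15 min library lay below every H2O2 library, as in 22.3% of tested genes, and in 9 every one lay above, as in 21% of tested genes. Without library a at 15 min, 31 members were lower and 7 higher. Since neither dose nor time of H2O2 is stated, the agent and its dose or time cannot be told apart. The H2O2 libraries were also deposited in a table of their own. Any difference in handling or processing cannot be told apart from the agent either.

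**Figure D2:**
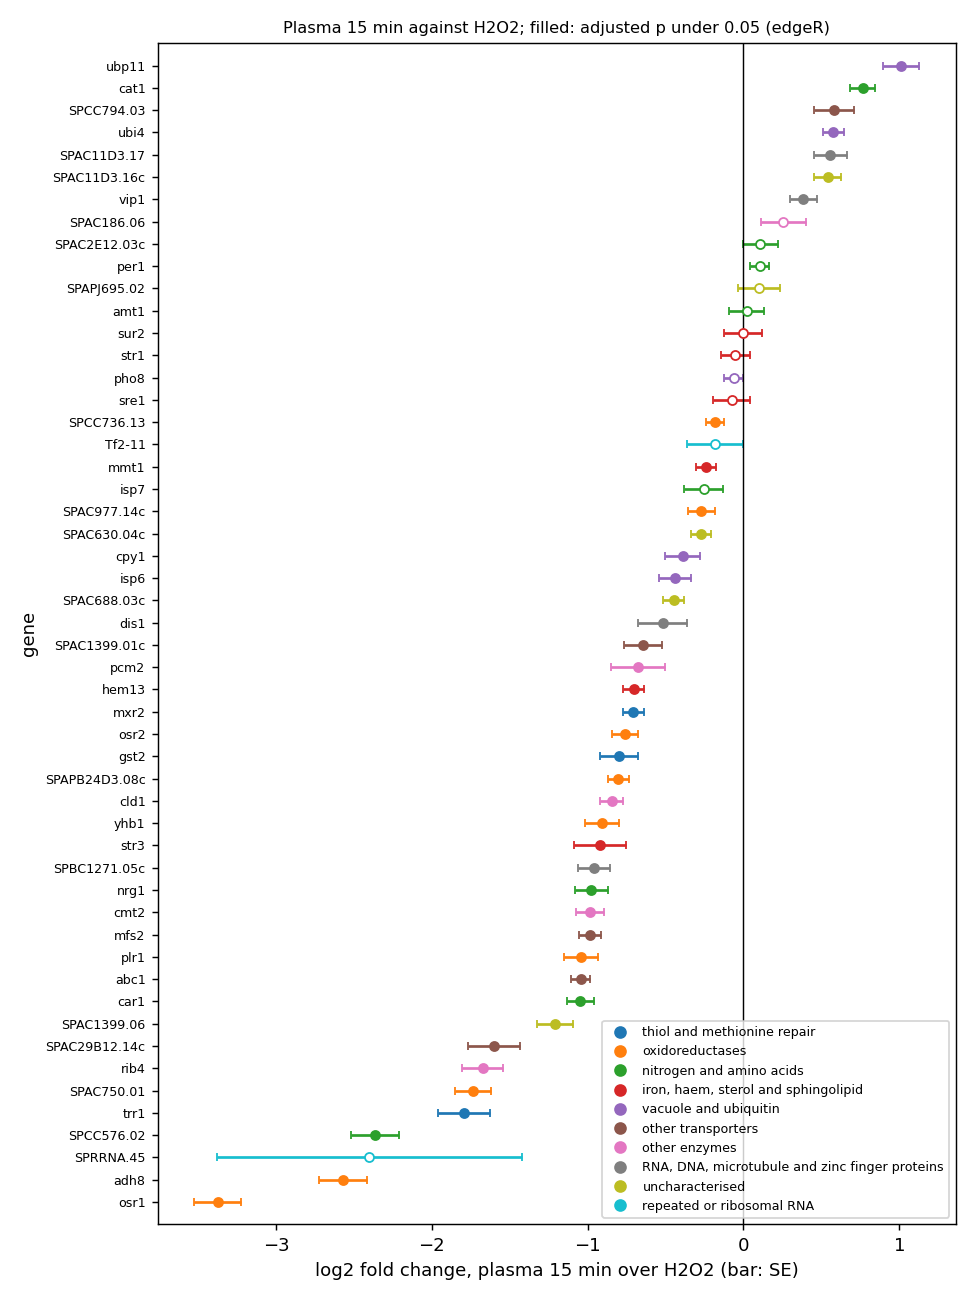
Log2 fold change of plasma at 15 min over H2O2 for each of the 52 genes, with its SE as a bar, coloured by role, filled where the adjusted p was under 0.05. The values run from -3.37 for osr1 to 1.01 for ubp11, and all filled points of the oxidoreductases and of thiol and methionine repair lie below 0. Filled points lie below 0 for 33 of the 52 genes and above 0 for 7.

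Another 207 genes were at least 2 times no irradiation at 30 min and outside the rule, mostly because they were already higher at 10 min. In these, 15 min was above H2O2 for 50 and below for 30 (24.2% and 14.5%), with a median log2 fold change of 0.13. The ratio of the 15 min mean to the 30 min mean was 0.817 at their median and 0.657 in the late-induced genes. The median ratio of H2O2 to no irradiation was 2.41 in these genes and 2.22 in the members. The rule parts the sets largely by their 10 min values, and whether they differ beyond that was not tested.

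All 3 genes of thiol and methionine repair were lower at 15 min than after H2O2. So were 33 of all 52 members and 13.2% of tested genes. The 3 genes rose 3.23-fold to 5.27-fold by 30 min with 42.4 to 51.1% of that rise present at 15 min. trr1 (SPBC3F6.03, chromosome II, 4189144 to 4191448) encodes thioredoxin reductase, which passes electrons from NADPH to thioredoxin. Its CPM was 261, 266 and 279 without irradiation, 287, 402 and 365 after 10 min, 1057, 620.4 and 704 after 15 min, 1137, 1387 and 1367 after 30 min, and 2820.3, 2866 and 2564 with H2O2. The groups at 15 and 30 min did not overlap the controls, and the lowest H2O2 library stood above the highest plasma library. The log2 fold change of 15 min over H2O2 was -1.79 ± 0.17 (adjusted p = 1.30e-06), and H2O2 stood 10.2-fold above no irradiation against 4.83-fold at 30 min. Of the trr1 interval 70.3% overlaps the non-coding gene SPNCRNA.1678, and as the counting set no strand option, reads there cannot be assigned to either gene with certainty.

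gst2 (SPCC965.07c, chromosome III, 2294617 to 2296383) encodes a glutathione S-transferase, which joins glutathione to reactive compounds. Per library, gst2 was at CPM of 397, 355 and 431 without irradiation, 507, 556 and 456 after 10 min, 1375, 932 and 1019.7 after 15 min, 2078, 2163 and 1999 after 30 min, and 1975, 1925 and 1896 with H2O2. Plasma at 30 min and H2O2 did not overlap but were near each other, at 5.27 and 4.9 times no irradiation, and 15 min lay between the controls and both (15 min over H2O2 -0.80 ± 0.12, adjusted p = 1.79e-04). mxr2 (SPBC216.04c, chromosome II, 902917 to 903856) encodes a methionine-R-sulfoxide reductase, which repairs oxidised methionine. Its mean CPM was 11.3 ± 0.900 without irradiation, 16.3 ± 0.954 after 10 min, 23.9 ± 0.829 after 15 min, 36.6 ± 0.834 after 30 min, and 39.1 ± 1.35 with H2O2 (SD, n = 3). The ratio of H2O2 to 30 min was 1.07, and 15 min was lower than H2O2 (-0.71 ± 0.07, adjusted p = 1.65e-06). Of its interval 71.8% overlaps the checkpoint kinase gene rad3.

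The 9 oxidoreductases were all higher than without irradiation both at 15 min and after H2O2, and all lower at 15 min than after H2O2. Among all 52 members, 47 and 46 were higher in these comparisons and 33 lower. For all tested genes the shares were 27.1, 28.5 and 13.2%. The roles were drawn after the members were seen. The oxidoreductases differed most in the size of the H2O2 response, from 1.81-fold to 30.4-fold, while the rise at 30 min was 2.51-fold to 5.04-fold. osr1 (SPCC663.06c, chromosome III, 1644754 to 1645876) encodes a dehydrogenase and had CPM of 20.3, 20.2 and 18 without irradiation, 26.6, 29.9 and 27 after 10 min, 76.9, 47.4 and 48.2 after 15 min, 64.1, 67.6 and 64.8 after 30 min, and 627, 634 and 521 with H2O2. The plasma groups at 15 and 30 min overlapped each other and stood far under the H2O2 libraries (15 min over H2O2 -3.37 ± 0.15, adjusted p = 4.85e-10). Of its windows of 50 bases, 7.82% also occur elsewhere in the genome. adh8 (SPBC1773.06c, chromosome II, 293225 to 294725), an alcohol dehydrogenase gene, had CPM of 44.5, 42.6 and 45.3 without irradiation, 47.7, 63.6 and 61.3 after 10 min, 199, 122 and 128 after 15 min, 211, 230.03 and 226 after 30 min, and 954, 918 and 794 with H2O2. Here too H2O2 was the highest group without overlap, 20.1 times no irradiation against 5.04 times at 30 min (-2.57 ± 0.16 for 15 min over H2O2, adjusted p = 1.64e-08).

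yhb1 (SPAC869.02c, chromosome I, 5517865 to 5519950) encodes nitric oxide dioxygenase, the flavohaemoglobin that detoxifies nitric oxide. Its CPM was 324, 281 and 319 without irradiation, 364, 354 and 359 after 10 min, 915, 668 and 699.9 after 15 min, 1307, 1102 and 1047 after 30 min, and 1434, 1452 and 1394 with H2O2. The 10 min libraries lay just above the controls, all 15 min libraries stood above these, and 15 min was lower than H2O2 (-0.91 ± 0.11, adjusted p = 1.76e-05). plr1 (SPAC9E9.11, chromosome I, 4461697 to 4462901) encodes pyridoxal reductase, of vitamin B6 metabolism, and its promoter is printed above. For plr1 the CPM was 382, 526 and 383 without irradiation, 604, 684 and 623 after 10 min, 846, 811 and 852 after 15 min, 1412, 1606 and 1536 after 30 min, and 1828, 1740.4 and 1601 with H2O2. Its ratio at 10 min was 1.48, close to the limit of 1.5, and 15 min was lower than H2O2 (-1.04 ± 0.11, adjusted p = 4.24e-06).

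SPAC750.01 and SPAC977.14c both encode aldo-keto reductases and lie near opposite ends of chromosome I, 22.4 and 59.6 kb from them. They share 343 windows of 50 bases, 34.2% of those of SPAC750.01 and 27.6% of those of SPAC977.14c, so reads may have been split between them or lost. SPAC750.01 (chromosome I, 5555716 to 5556768) had CPM of 14.1, 14.3 and 15.5 without irradiation, 17, 17.7 and 17.9 after 10 min, 47.2, 31.5 and 30.2 after 15 min, 60.04, 63.2 and 59.3 after 30 min, and 128, 116 and 116 with H2O2. SPAC750.01 was 1.97 times as high after H2O2 as at 30 min without overlap, and 15 min was lower than H2O2 (-1.74 ± 0.12, adjusted p = 4.03e-08). SPAC977.14c had mean CPM of 966 ± 135 without irradiation, 1294 ± 58.9 after 10 min, 1446 ± 42.4 after 15 min, 2529 ± 92.5 after 30 min, and 1744 ± 44.2 with H2O2 (SD, n = 3). It went the other way, with 30 min above H2O2 (ratio of H2O2 to 30 min 0.689). Its difference between 15 min and H2O2 was small (-0.27 ± 0.08, adjusted p = 0.0322) and did not pass when any of the 6 libraries was left out (adjusted p 0.0547 to 0.0984).

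The other 3 oxidoreductases rose 2.51-fold to 3.13-fold. SPAPB24D3.08c, an NADP-dependent oxidoreductase, had mean CPM of 162 ± 7.38 without irradiation, 214 ± 10.9 after 10 min, 355 ± 31 after 15 min, 507 ± 19.4 after 30 min, and 619 ± 12.6 with H2O2 (SD, n = 3), and was lower at 15 min than after H2O2 (-0.80 ± 0.07, adjusted p = 3.71e-07). osr2, which RefSeq names a potassium channel subunit and whose family has the aldo-keto reductase fold, had mean CPM of 149.6 ± 5.19 without irradiation, 160.03 ± 13 after 10 min, 229 ± 21.5 after 15 min, 454 ± 46.4 after 30 min, and 388 ± 21.4 with H2O2. It was lower at 15 min than after H2O2 (-0.76 ± 0.08, adjusted p = 8.52e-06) and had made 26.2% of its rise by 15 min. SPCC736.13, a dehydrogenase gene, had mean CPM of 108 ± 1.72 without irradiation, 159.7 ± 12.8 after 10 min, 197 ± 4.02 after 15 min, 270.5 ± 7.08 after 30 min, and 224 ± 6.87 with H2O2. Its change of 15 min against H2O2 was -0.18 ± 0.06 (adjusted p = 0.0267), which did not pass without any 1 of the 15 min libraries or of H2O2 libraries a and b (adjusted p 0.0508 to 0.108), nor with total counts (0.139).

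The 8 genes of nitrogen and amino acid metabolism differed among themselves. At 15 min against H2O2, 1 was higher, 3 were lower and 4 were not called. car1 (SPBP26C9.02c, chromosome II, 323944 to 325565) encodes arginase, which breaks arginine down to ornithine and urea, and had CPM of 86.1, 94.2 and 81.2 without irradiation, 80.7, 105 and 99.5 after 10 min, 147, 134 and 139 after 15 min, 341, 378 and 361 after 30 min, and 309, 287 and 271 with H2O2. The 10 min libraries overlapped the controls, 15 min stood above these with 19.3% of the 30 min rise, and H2O2 was higher than 15 min (-1.05 ± 0.09 for 15 min over H2O2, adjusted p = 4.62e-07). cat1 (SPAC869.11, chromosome I, 5489134 to 5491791), the gene of the plasma membrane importer of arginine and lysine, had CPM of 109.5, 93.4 and 125 without irradiation, 153, 137 and 150.3 after 10 min, 225, 209 and 212 after 15 min, 234, 228 and 223 after 30 min, and 128, 123 and 129 with H2O2. In cat1 the rise was nearly complete at 15 min (89.2%), and 15 min exceeded H2O2 without overlap (0.76 ± 0.08, adjusted p = 5.32e-06). Its H2O2 libraries overlapped the controls (log2 fold change 0.21 ± 0.08, adjusted p = 0.0393), and this call was lost without any H2O2 library or without control library a or b (adjusted p 0.0541 to 0.153), and with total counts (0.189).

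amt1 (SPCPB1C11.01, chromosome III, 2068977 to 2071707) encodes an ammonium transporter of the plasma membrane. Its libraries had CPM of 100.4, 91.9 and 122 without irradiation, 40.8, 50.6 and 41.7 after 10 min, 116, 92.7 and 99.96 after 15 min, 254, 219 and 202 after 30 min, and 102, 98.6 and 104 with H2O2. The level at 10 min was 0.423 times that without irradiation, at 15 min it overlapped the controls again, and only the 30 min libraries stood above them. amt1 was called neither at 15 min (-0.03 ± 0.11, adjusted p = 0.863) nor after H2O2 (-0.05 ± 0.11, adjusted p = 0.748) against no irradiation. isp7 (SPAC25B8.13c, chromosome I, 4179961 to 4183074), a gene of the 2-oxoglutarate and iron dependent oxygenase family, had CPM of 155, 135 and 163 without irradiation, 71.1, 89.3 and 54 after 10 min, 235, 239 and 235 after 15 min, 321, 289 and 304 after 30 min, and 262, 279 and 305 with H2O2. It also had its lowest libraries at 10 min, and its 15 min libraries stood above the controls (0.64 ± 0.13, adjusted p = 5.70e-04). per1, an amino acid permease gene, had mean CPM of 49.2 ± 1.2 without irradiation, 37 ± 4.17 after 10 min, 73.4 ± 3.84 after 15 min, 99.96 ± 2.19 after 30 min, and 68.2 ± 0.798 with H2O2. Its ratio at 10 min was 0.751, and 15 min and H2O2 were both higher than no irradiation (0.58 ± 0.06 and 0.47 ± 0.06). nrg1, another amino acid permease gene, had mean CPM of 71 ± 5.38 without irradiation, 53.6 ± 2.45 after 10 min, 78.5 ± 3.95 after 15 min, 184 ± 34.8 after 30 min, and 154 ± 14.3 with H2O2. It had made 6.63% of its rise at 15 min and was lower then than after H2O2 (-0.98 ± 0.11, adjusted p = 6.38e-06).

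SPCC576.02 (chromosome III, 2081176 to 2084027), of the hydantoin racemase family, had CPM of 48.6, 39.3 and 52.7 without irradiation, 40.9, 43.5 and 47 after 10 min, 108, 63.4 and 67.7 after 15 min, 126, 132 and 126 after 30 min, and 411, 415 and 401 with H2O2. Its H2O2 libraries were far above all plasma libraries, 8.73 times no irradiation against 2.73 times at 30 min, and 15 min was lower than H2O2 (-2.36 ± 0.15, adjusted p = 3.63e-08). SPAC2E12.03c, a vacuolar transporter of basic amino acids, had mean CPM of 14.8 ± 3.01 without irradiation, 21.4 ± 1.57 after 10 min, 31.9 ± 1.69 after 15 min, 46.7 ± 5.29 after 30 min, and 29.6 ± 1.14 with H2O2. Its levels at 15 min and after H2O2 were not called different (0.11 ± 0.11, adjusted p = 0.545), and 39.95% of its interval overlaps wtf1. In the nitrogen starvation list, 14 genes were tested and 4 were members, isp6, isp7, per1 and amt1. No further gene of the list reached 2-fold at 30 min. At 15 min 5 genes of that list were higher and 2 lower than without irradiation, and after H2O2 7 and 2. Of 13 tested genes of arginine and nitrogen compounds, car1 and cat1 alone reached 2-fold at 30 min, while 4 were higher and 6 lower at 15 min, with 4 higher and 1 lower after H2O2. The shares over all 5214 tested genes were 27.1% higher and 24.8% lower at 15 min, and 28.5% and 25.6% after H2O2. Both lists were written with results of these data known.

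**Figure D3:**
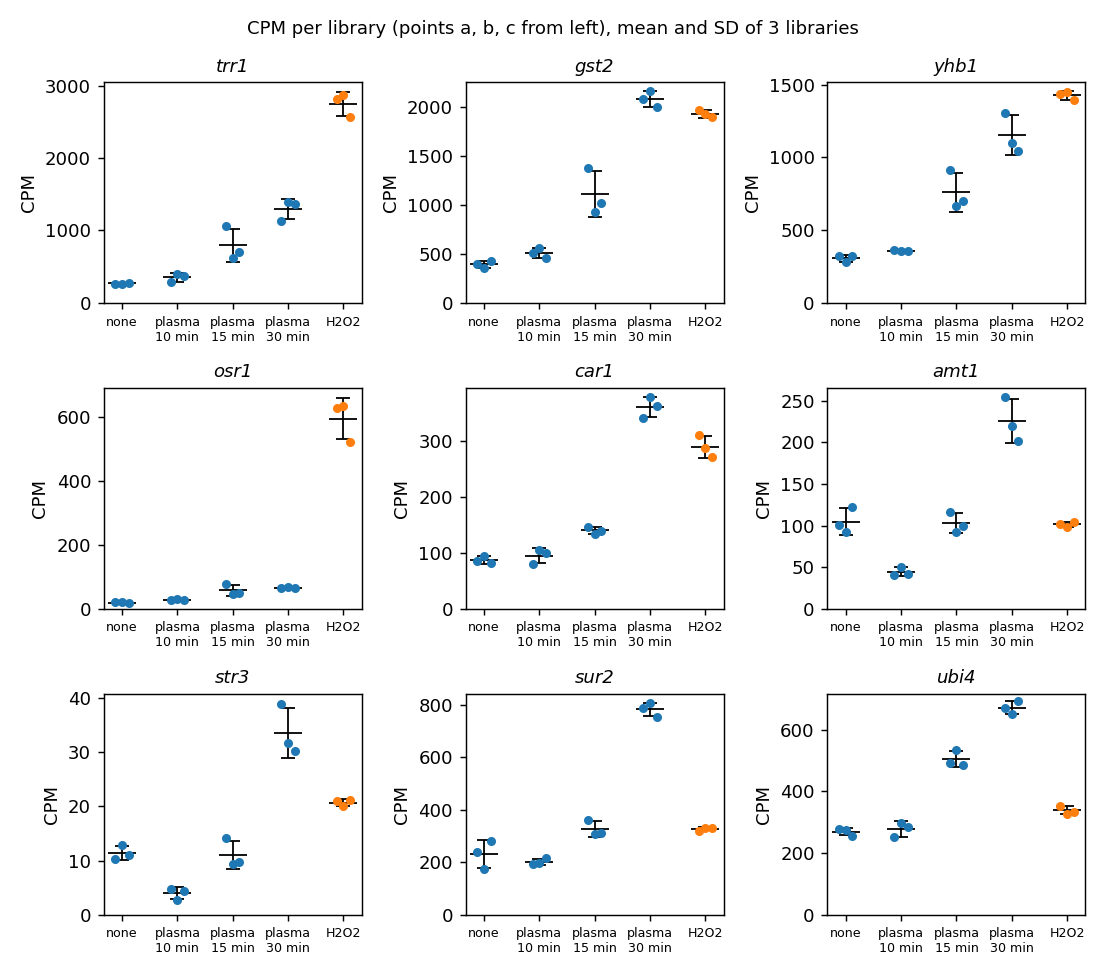
CPM per library for 9 late-induced genes, with points for libraries a, b and c, a horizontal mark at the mean and bars of 1 SD (n = 3), plasma and control in blue and H2O2 in orange. The panels show H2O2 highest for trr1 and osr1, H2O2 within the range of the controls for amt1, and the lowest level at 10 min for amt1 and str3.

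The 6 genes of iron, haem, sterol and sphingolipid metabolism had a median of 18.2% of the 30 min rise at 15 min, the lowest of the roles apart from the repeated and ribosomal RNA genes. At 15 min against H2O2, 3 were lower and 3 not called. All 6 were higher after H2O2 than without irradiation, as were 46 of the 52 members and 28.5% of tested genes. str3 (SPAC1F8.03c, chromosome I, 88201 to 90300) encodes a siderophore-iron transporter and had CPM of 10.3, 12.8 and 11 without irradiation, 4.81, 2.71 and 4.39 after 10 min, 14.1, 9.33 and 9.74 after 15 min, 38.9, 31.6 and 30.3 after 30 min, and 20.9, 20.01 and 21.1 with H2O2. The 10 min libraries were the lowest, 0.350 times the controls, 15 min overlapped the controls, and 30 min stood above all other groups. str3 was lower at 15 min than after H2O2 (-0.92 ± 0.17, adjusted p = 9.70e-04). str1 (SPBC4F6.09, chromosome II, 2704645 to 2707648), which also encodes a siderophore-iron transporter, had CPM of 192, 162 and 211 without irradiation, 196, 205 and 195 after 10 min, 449, 403 and 381 after 15 min, 481, 483 and 507 after 30 min, and 395, 402 and 480.1 with H2O2. Here 73.7% of the rise was present at 15 min, whose libraries overlapped those of H2O2 (-0.05 ± 0.09, adjusted p = 0.742). mmt1, a mitochondrial iron transporter gene, had mean CPM of 29.7 ± 1.88 without irradiation, 26.1 ± 1.84 after 10 min, 35.9 ± 0.975 after 15 min, 62.2 ± 1.31 after 30 min, and 42.4 ± 3.02 with H2O2. Its 15 min level was lower than after H2O2 (-0.24 ± 0.07, adjusted p = 0.0164), a call lost without 15 min library b or c or H2O2 library a or c (adjusted p 0.0505 to 0.0804), and with total counts (0.0907).

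Of 14 tested genes of iron uptake, 4 reached 2-fold at 30 min. These were the members str1 and str3, sib2, a siderophore synthesis gene already higher at 10 min, and shu1, a haem uptake gene next to str3 that moved from 0.626 ± 0.0642 to 3.05 ± 0.338 CPM (SD, n = 3) and lay under the minimum mean. In that list 5 genes were higher and 3 lower at 15 min than without irradiation, and 10 and 2 after H2O2. At 15 min 1 was higher and 8 lower than after H2O2. For all tested genes the shares were, in the same order, 27.1% and 24.8%, 28.5% and 25.6%, and 9.9% and 13.2%.

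hem13 (SPAC222.11, chromosome I, 966164 to 967591) encodes coproporphyrinogen oxidase, an oxygen-requiring enzyme of haem synthesis, and had CPM of 403, 357 and 404 without irradiation, 274, 317 and 288 after 10 min, 419, 391 and 386 after 15 min, 986, 1031 and 968 after 30 min, and 652, 655 and 641 with H2O2. Its 15 min libraries overlapped the controls (0.04 ± 0.07, adjusted p = 0.661), 30 min stood 2.56-fold above, and H2O2 lay between (0.74 ± 0.07 over no irradiation, adjusted p = 2.70e-07). sre1 (SPBC19C2.09, chromosome II, 1691270 to 1694691) encodes the membrane-bound transcription factor that senses sterols and oxygen. Its mean CPM was 151 ± 36.4 without irradiation, 158 ± 1.64 after 10 min, 216 ± 9.86 after 15 min, 371 ± 22.4 after 30 min, and 227 ± 12 with H2O2 (SD, n = 3). At 15 min and after H2O2 sre1 was higher than without irradiation (0.51 ± 0.12 and 0.59 ± 0.12) with no call between the 2 (-0.08 ± 0.12, adjusted p = 0.698). sur2 (SPBC887.15c, chromosome II, 3570849 to 3572677), a sphingolipid hydroxylase gene, had CPM of 239.9, 172 and 280.4 without irradiation, 194, 196 and 215 after 10 min, 360.2, 308 and 312 after 15 min, 788, 805 and 755 after 30 min, and 320.2, 329.9 and 332 with H2O2. Its 30 min libraries stood above all others, and 15 min and H2O2 overlapped at 1.41 and 1.42 times no irradiation (-0.00 ± 0.12 between them, adjusted p = 0.989). Of 20 tested ergosterol genes, sre1 was the 1 member, and 3 were higher and 7 lower at 15 min than without irradiation. For all tested genes these shares were 27.1% and 24.8%.

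**Figure D4:**
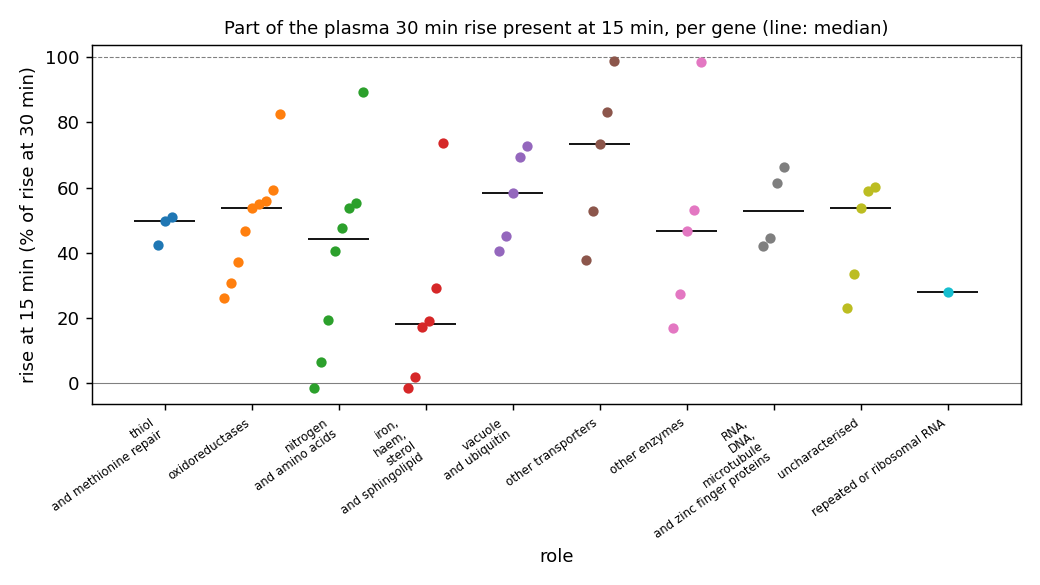
Part of the rise from no irradiation to plasma 30 min that was present at 15 min, in percent of the 30 min rise, for 51 genes by role (SPRRNA.45, at -35.8%, is not drawn), with the median of each role as a line. The median of iron, haem, sterol and sphingolipid genes is 18.2% and that of other transporters 73.3%, with points of single genes from -1.54 to 98.9%.

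The 5 vacuole and ubiquitin genes rose between 2.01-fold and 2.5-fold by 30 min. All 5 were higher at 15 min than without irradiation, as were 47 of the 52 members and 27.1% of tested genes. ubi4 (SPBC337.08c, chromosome II, 1044271 to 1046642) encodes polyubiquitin, the source of ubiquitin under stress, and had CPM of 277, 276 and 256 without irradiation, 251, 298 and 286 after 10 min, 493, 535 and 486 after 15 min, 669.98, 651 and 693 after 30 min, and 353, 328 and 334 with H2O2. The 10 min libraries overlapped the controls, and 15 min exceeded H2O2 without overlap (0.58 ± 0.07, adjusted p = 1.49e-05). Its repeats limit unique counting, as 43.1% of its windows of 50 bases occur more than once in the genome. ubp11 (SPBC19C2.04c, chromosome II, 1676352 to 1678652), a ubiquitin hydrolase gene, had CPM of 15.1, 12.7 and 18.3 without irradiation, 18.6, 19.1 and 19.8 after 10 min, 24.2, 28.1 and 26.1 after 15 min, 34.7, 29.9 and 28 after 30 min, and 12.4, 12.9 and 13.6 with H2O2. It had the highest log2 fold change of 15 min over H2O2 among the members (1.01 ± 0.12, adjusted p = 1.07e-05), and its H2O2 libraries overlapped the controls (log2 fold change -0.24 ± 0.12, adjusted p = 0.109).

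The vacuolar hydrolases were less apart between agents. isp6, a vacuolar serine protease gene, had mean CPM of 174 ± 12.6 without irradiation, 247 ± 38.1 after 10 min, 279 ± 28.5 after 15 min, 434 ± 32.4 after 30 min, and 379 ± 20.4 with H2O2 and was lower at 15 min than after H2O2 (-0.44 ± 0.10, adjusted p = 0.00551). cpy1, the gene of carboxypeptidase Y, had mean CPM of 1339 ± 166 without irradiation, 1828 ± 203 after 10 min, 2389 ± 93.8 after 15 min, 2781 ± 279 after 30 min, and 3132 ± 299 with H2O2. Its 15 min level was lower than after H2O2 (-0.39 ± 0.11, adjusted p = 0.0188), a call lost without 15 min library b or c or H2O2 library c (adjusted p 0.0621 to 0.0886), and 9.44% of its windows of 50 bases occur elsewhere. pho8, an alkaline phosphatase gene, had mean CPM of 186 ± 7.21 without irradiation, 246 ± 15.6 after 10 min, 274 ± 6.57 after 15 min, 381 ± 22.7 after 30 min, and 286 ± 6.7 with H2O2 with no call between 15 min and H2O2 (-0.06 ± 0.06, adjusted p = 0.492). Of 23 tested autophagy genes 0 were members, 20 were higher at 15 min than without irradiation and 20 after H2O2. Of 29 tested proteasome genes, also with 0 members, 3 were higher at 15 min and 14 after H2O2. Over all 5214 tested genes 27.1% were higher at 15 min and 28.5% after H2O2. Members were 52 of these genes, so 0 in lists of this size is near that share.

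Among the 5 other transporters 4 were lower at 15 min than after H2O2 and 1 was higher. For all 52 members the counts were 33 lower and 7 higher, and for tested genes 13.2% and 9.9%. SPAC29B12.14c (chromosome I, 5439647 to 5442552), a purine transporter gene, had CPM of 96.1, 73.3 and 106 without irradiation, 118, 124 and 135 after 10 min, 435, 248 and 274 after 15 min, 387, 416 and 402 after 30 min, and 982, 978 and 942 with H2O2. H2O2 was the highest group without overlap, at 2.41 times the 30 min level, and 15 min was lower than H2O2 (-1.60 ± 0.17, adjusted p = 4.44e-06). SPAC1399.01c (chromosome I, 1851495 to 1854651), a transporter gene, had CPM of 21.2, 21.5 and 26.6 without irradiation, 25.3, 31.9 and 29.2 after 10 min, 88.3, 60.7 and 59.7 after 15 min, 71.7, 69.5 and 69.2 after 30 min, and 106, 107 and 111 with H2O2. Its rise was complete to 98.9% at 15 min, through library a most of all, and H2O2 stood above every plasma library (-0.65 ± 0.12, adjusted p = 0.00109). SPCC794.03 (chromosome III, 245844 to 247871), a thiamine transporter gene, had CPM of 9.37, 9.12 and 8.54 without irradiation, 9.12, 9.13 and 12 after 10 min, 19.9, 16.4 and 14.9 after 15 min, 21.2, 18.5 and 16.4 after 30 min, and 11.3, 11.3 and 11.4 with H2O2. It was the 1 gene of this group that was higher at 15 min than after H2O2 (0.58 ± 0.13, adjusted p = 0.00444), and H2O2 was not called against no irradiation (0.33 ± 0.14, adjusted p = 0.0535).

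abc1, an ABC transporter gene, had mean CPM of 161 ± 11.2 without irradiation, 212 ± 13 after 10 min, 253 ± 4.46 after 15 min, 404 ± 22.5 after 30 min, and 522 ± 1.44 with H2O2 and was lower at 15 min than after H2O2 (-1.04 ± 0.06, adjusted p = 1.46e-08). mfs2, of the major facilitator family of transporters, had mean CPM of 27.9 ± 2.69 without irradiation, 41.6 ± 4.88 after 10 min, 49.3 ± 1.27 after 15 min, 68.4 ± 1.33 after 30 min, and 97.7 ± 0.526 with H2O2 and was lower too (-0.99 ± 0.07, adjusted p = 1.01e-07). Of 14 tested drug and metabolite transporters, 10 were higher at 15 min than without irradiation with 0 lower, and 10 higher with 2 lower after H2O2. For all tested genes the shares were 27.1% and 24.8% at 15 min, and 28.5% and 25.6% after H2O2.

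The 5 other enzymes included the genes with the 2 highest ratios of 30 min to no irradiation, cmt2 and SPAC186.06. cmt2 (SPBPB21E7.04c, chromosome II, 64487 to 65620) encodes catechol O-methyltransferase and had CPM of 23.5, 21.8 and 20.3 without irradiation, 28.2, 32.4 and 26.2 after 10 min, 108, 89.1 and 82.9 after 15 min, 187, 174 and 164 after 30 min, and 193, 189 and 171 with H2O2. At 8.0-fold it had the highest ratio of 30 min to no irradiation of the members, it stood 4.27-fold above already at 15 min, and H2O2 was near the 30 min level (ratio 1.06). The difference of 15 min from H2O2 was -0.98 ± 0.09 (adjusted p = 1.44e-06). SPAC186.06 (chromosome I, 5542290 to 5543031), an isomerase gene, had CPM of 6.47, 8.0 and 8.36 without irradiation, 4.21, 5.42 and 4.25 after 10 min, 13.6, 15.1 and 13.3 after 15 min, 55.7, 43.7 and 37.5 after 30 min, and 12.8, 11.4 and 11 with H2O2. The 10 min libraries were the lowest, the 30 min libraries stood far above every other group, and 15 min and H2O2 were not called different (0.26 ± 0.15, adjusted p = 0.234). Its ratio of 30 min to 10 min, 9.86, was the highest of the members.

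rib4 (SPBC409.13, chromosome II, 1165419 to 1166729) encodes lumazine synthase, of riboflavin synthesis, and its promoter is printed above. The CPM of rib4 was 109, 117 and 103 without irradiation, 110.3, 128 and 123 after 10 min, 303, 189 and 207 after 15 min, 545, 603 and 542 after 30 min, and 735, 774 and 717 with H2O2. The 10 min libraries overlapped the controls, 15 min had 27.2% of the rise, and H2O2 was higher than every plasma library (-1.67 ± 0.13 for 15 min over H2O2, adjusted p = 2.41e-07). cld1, the gene of a cardiolipin-specific phospholipase, had mean CPM of 124 ± 9.94 without irradiation, 159 ± 12.7 after 10 min, 228 ± 18.7 after 15 min, 320.1 ± 7.1 after 30 min, and 409.9 ± 2.4 with H2O2 and was lower at 15 min than after H2O2 (-0.85 ± 0.07, adjusted p = 5.35e-07). pcm2, of the protein isoaspartate methyltransferases, which repair aged aspartate residues, had mean CPM of 2.63 ± 0.504 without irradiation, 2.47 ± 0.301 after 10 min, 5.87 ± 1.32 after 15 min, 5.92 ± 0.344 after 30 min, and 9.3 ± 1.6 with H2O2. It was lower at 15 min than after H2O2 (-0.68 ± 0.17, adjusted p = 0.0104), a call lost without 15 min library b or c or H2O2 library b (adjusted p 0.0524 to 0.0582).

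Of the 4 genes for RNA, DNA, microtubule and zinc finger proteins, 2 were higher and 2 lower at 15 min than after H2O2. vip1 (SPAC10F6.06, chromosome I, 1217077 to 1218228) encodes an RNA-binding protein and had CPM of 758, 895 and 734 without irradiation, 1001, 1205 and 1083 after 10 min, 1314, 1376 and 1382 after 15 min, 1635, 1767 and 1728 after 30 min, and 1092, 1039 and 989.8 with H2O2. The 15 min libraries exceeded those of H2O2 without overlap (0.38 ± 0.09, adjusted p = 0.00411). SPBC1271.05c, a zinc finger gene of the AN1 type, had mean CPM of 47.8 ± 9.54 without irradiation, 53.2 ± 1.19 after 10 min, 85.2 ± 8.55 after 15 min, 137 ± 4.91 after 30 min, and 165 ± 5.6 with H2O2 and was lower at 15 min than after H2O2 (-0.96 ± 0.10, adjusted p = 5.60e-06). dis1, of the microtubule polymerases, had mean CPM of 3.35 ± 0.191 without irradiation, 4.36 ± 1.07 after 10 min, 6.1 ± 0.893 after 15 min, 7.48 ± 0.837 after 30 min, and 8.67 ± 0.527 with H2O2. Its 15 min level was lower than after H2O2 (-0.52 ± 0.16, adjusted p = 0.0263), a call lost without 15 min library b or c or H2O2 library a or c (adjusted p 0.0741 to 0.123) and with total counts (0.0959), and 80.2% of its interval overlaps SPNCRNA.1132.

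SPAC11D3.17 (chromosome I, 141199 to 144768) encodes a transcription factor with a binuclear zinc cluster and had CPM of 30.2, 27.3 and 29.5 without irradiation, 24, 28.5 and 27.2 after 10 min, 47, 42.4 and 45.7 after 15 min, 79.1, 58.5 and 57.5 after 30 min, and 29.2, 30.8 and 31.6 with H2O2. SPAC11D3.16c (chromosome I, 140381 to 141653), its uncharacterised neighbour, had CPM of 24.2, 19.8 and 23.2 without irradiation, 24.8, 27.9 and 24.7 after 10 min, 34, 36.8 and 37.3 after 15 min, 50.4, 47.4 and 45.6 after 30 min, and 27.2, 25.2 and 22.1 with H2O2. In both the H2O2 libraries overlapped the controls and the 15 min libraries stood above H2O2 (0.56 ± 0.11, adjusted p = 0.00122, and 0.54 ± 0.09, adjusted p = 3.47e-04). The 2 genes point away from each other and their intervals overlap by 455 bases, so without a strand option their counts are not fully separate.

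The other 4 uncharacterised genes rose between 2.3-fold and 3.46-fold by 30 min. SPAC1399.06 (chromosome I, 1848338 to 1850881) had CPM of 16.3, 16.8 and 17.5 without irradiation, 16, 19.2 and 18.1 after 10 min, 37.8, 24.7 and 27.8 after 15 min, 42.9, 37.7 and 35.9 after 30 min, and 69.7, 70.8 and 66.8 with H2O2. As with its divergent neighbour SPAC1399.01c, 613 bases away, H2O2 was the highest group without overlap (-1.21 ± 0.12 for 15 min over H2O2, adjusted p = 1.83e-06). SPAPJ695.02 (chromosome I, 74452 to 76721) had CPM of 33.1, 26 and 27.1 without irradiation, 32.3, 31.7 and 24.6 after 10 min, 41.1, 49.1 and 44.8 after 15 min, 122, 89.5 and 86.5 after 30 min, and 42.9, 44.5 and 38.7 with H2O2. It stood highest at 30 min, and 15 min and H2O2 were not called different (0.10 ± 0.13, adjusted p = 0.652). SPAC688.03c, of the AMMECR1 family, had mean CPM of 17.2 ± 0.686 without irradiation, 25.2 ± 2.05 after 10 min, 35 ± 0.917 after 15 min, 47.4 ± 3.45 after 30 min, and 47.8 ± 1.15 with H2O2 and was lower at 15 min than after H2O2 (-0.45 ± 0.07, adjusted p = 1.56e-04). SPAC630.04c had mean CPM of 24.1 ± 1.19 without irradiation, 30.6 ± 2.18 after 10 min, 34.5 ± 0.672 after 15 min, 55.3 ± 2.06 after 30 min, and 41.8 ± 2.61 with H2O2 and was lower too (-0.27 ± 0.06, adjusted p = 0.00588), with 61% of its interval overlapping the actin-related gene arp3.

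SPRRNA.45 and Tf2-11 are repeated sequences and are the least certain members. SPRRNA.45 had CPM of 203, 122 and 28.6 without irradiation, 114, 273 and 39.3 after 10 min, 63.7, 14.6 and 47.6 after 15 min, 238, 679.6 and 71.1 after 30 min, and 501, 102 and 59.3 with H2O2. Its libraries at 15 min lay below those at 30 min, all other groups overlapped, and 100% of its windows of 50 bases occur elsewhere in the genome. Ribosomal RNA is reduced by the selection of mRNA, and no test called it (adjusted p = 0.0908, 0.204 and 0.43). Tf2-11, a retrotransposon of the Tf2 type, had mean CPM of 5.03 ± 1.42 without irradiation, 5.38 ± 0.928 after 10 min, 6.98 ± 0.275 after 15 min, 12 ± 1.77 after 30 min, and 7.93 ± 1.09 with H2O2, and 90.9% of its windows occur elsewhere. It was higher at 15 min than without irradiation (0.49 ± 0.19, adjusted p = 0.0414), a call lost without any 15 min library or control library a or b (adjusted p 0.0680 to 0.149), and with total counts (0.0766). Without both, the counts at 15 min against H2O2 stayed at 7 higher and 33 lower.

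Position in the genome was not used by the rule. Of the 52 members, 11 lay within 100 kb of a chromosome end (21.2%), against 107 of 4201 placed genes above the minimum mean (2.55%) and 15 of the other 207 genes at least 2-fold at 30 min (7.25%). These were cmt2, SPAC186.06, SPAC750.01, yhb1, SPAPJ695.02, str3, SPAC977.14c, nrg1, pcm2, cat1 and SPRRNA.45. Members lay 27 on chromosome I, 15 on II and 10 on III. Neighbouring genes formed 5 pairs of members. plr1 and abc1 end 38 bases apart, osr2 and gst2 end 42 bases apart, and SPCC736.13 and dis1 start 54 bases apart, besides the 2 divergent pairs above. The stretch between SPCC736.13 and dis1 (chrIII:342097-342150, + strand, RefSeq ASM294v3) is shown because any promoter bases outside both annotated genes lie in it.
SPCC736.13 and dis1: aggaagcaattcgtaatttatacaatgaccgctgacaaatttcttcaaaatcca
Of the 52 members, 20 overlap another listed gene and 4 do so over at least 50% of their length, against 3224 and 927 of the 5214 tested genes. Unlike the members, the tested genes were not cut by the SPNCRNA identifier or the minimum mean, so these shares are not like for like. Without the 4 members that overlap over at least 50%, 7 members were higher and 29 lower at 15 min than after H2O2.

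The Pap1 list is split here by the rule's own limit of 1.5 at 10 min. Values near that limit were close, with 1.48 in the member plr1 and 1.61 in tpx1 on the other side. Of the 15 tested genes of the Pap1 list, 11 reached 2-fold at 30 min, and pap1, apt1, trx2 and pmd1 did not. The members trr1, gst2, plr1 and osr1 made up 4 of these, and the other 7 had already reached 1.5-fold at 10 min: srx1 (sulfiredoxin), ctt1 (catalase), gst3, caf5, bfr1, zwf1 and tpx1 (peroxiredoxin). In this list 13 genes were lower and 1 higher at 15 min than after H2O2, with a median log2 fold change of -0.80. Of 24 tested antioxidant and thiol genes, 9 reached 2-fold at 30 min, with 2 members (trr1 and gst2) and 7 already higher at 10 min, while 12 were lower and 3 higher at 15 min than after H2O2. The core environmental stress response held 3 members, plr1, isp6 and gst2, among 31 tested genes, with 5 higher and 7 lower at 15 min than after H2O2. The lists of heat shock proteins (25 tested), mating and meiosis (23) and the respiratory chain (30) held 0 members. Members were 52 of all 5214 tested genes, so 0 in lists of this size is near that share. At 15 min against H2O2, 11 heat shock genes were higher and 0 lower, and 21 respiratory chain genes were higher and 0 lower. In mating and meiosis 0 were higher and 3 lower. Over all tested genes 9.9% were higher and 13.2% lower.

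The limits of the rule cut through close values. At the limit of 2 for 30 min over no irradiation, ubp11 (2.01) and isp7 (2.02) lay just inside and scs22 (1.99) and SPAC18G6.12c (1.98) just outside, and 98 genes failed this limit alone. At the limit of 1.5 for 10 min, mfs2 (1.49) and plr1 (1.48) lay inside and dpe1 (1.51) and SPBC1348.12 (1.54) outside, with 61 genes failing this alone. At the limit of 1.5 for 30 over 10 min, cpy1 (1.52) and pho8 (1.55) lay inside and SPAC26H5.09c (1.498) and SPAC24B11.05 (1.49) outside, with 13 failing this alone. A further 5 genes with SPNCRNA identifiers met the 3 ratios.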

How the data were processed

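The authors deposited raw counts per gene in 2 tables, the H2O2 libraries in their own. Per the file headers, featureCounts 2.0.1 counted read pairs over transcript features with no strand option, and the submitters' processing notes name HISAT2 2.2.1 and SAMtools 1.13. The build those notes name, R64, is a budding yeast name. Of 6852 identifiers matched to RefSeq ASM294v3, 6834 (99.7%) share a start or end with it, so sequence was read from it. Both tables were joined on the gene identifier, with 0 columns left out. Columns carry letters, not the labels' replicate numbers, so libraries are named by letter.

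Genes were kept with filterByExpr and scaled with TMM, and 15 libraries were fitted in 1 model (edgeR 4.0.16, R 4.3.3, glmQLFit, glmQLFTest, two-sided). Adjusted p-values are Benjamini-Hochberg values over all 5214 genes, with a threshold of 0.05, and rest on the spread between these libraries. The biological coefficient of variation was 8.80%, and replicate pairs differed by 8.11 to 71.6 chi-square per degree of freedom, where counting error alone gives about 1. The edgeR test was tried on simulated counts, and the other steps were not. DESeq2 1.42.0 and other scalings, filters and left-out libraries were alternatives.

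Members, gene lists and roles were chosen with earlier results of these data known, and the roles after the members were seen. Values were to be given for the 12 highest ratios at 30 min, the 8 highest and 8 lowest called changes at 15 min against H2O2, up to 4 members of each list, genes nearest each limit, and the 3 highest and 3 lowest ratios of 15 to 30 min. This took in 37 members, and the other 15 are named to account for every gene.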

Additional observations from a re-analysis of the deposited data

How the results depend on the processing

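The number of genes that meet the rule was 54 with RLE size factors, 45 with total counts, 52 with TMM over all genes, 57 with group medians, and 45 to 67 with each library left out, with at least 44 of the 52 shared in each case. Members higher and lower at 15 min than after H2O2 were 7 and 27 to 34 under all alternatives (27 to 31 with a library left out). Against no irradiation 15 min was higher in 46 to 47 and lower in 0 with a library left out, and H2O2 higher in 45 to 46 and lower in 0 to 1, the 1 being ubp11 without control library b. With the column letter as a replicate block the counts were 7 and 33, 47 and 0, and 46 and 0. Whether the letters mark a shared batch was not tested. Ribosomal RNA took its largest share of counts in library a and its smallest in library c in all 5 groups. The same held for the share of mitochondrial genes, so composition did follow the letter. In their deviations libraries of the same letter correlated by -0.007 to 0.30, with 5 of 9 pairs above 0.1. Not every library correlated best with its own letter. The main fit did not use the letters as a block. Over all tested genes, total counts gave 444 higher and 398 lower at 15 min against H2O2, where TMM gave 516 and 687.

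Of 156 gene results, 133 were called and 8 of these lost the call under at least 1 alternative (5 of them with total counts among others), and 0 called results changed sign. Uncalled results that changed sign lay near 0 except for SPRRNA.45. With a library left out, 15 min over H2O2 ran from -0.12 to 0.043 in str1, from -0.079 to 0.038 in sur2 (0.029 with total counts) and from -0.073 to 0.090 in amt1. Over no irradiation, 15 min ran from -0.25 to 0.050 in str3, from -0.010 to 0.068 in hem13 and from -0.12 to 0.096 in amt1, and H2O2 from -0.13 to 0.076 in amt1 and from -0.55 to 1.54 in SPRRNA.45. DESeq2 called SPCC794.03 higher after H2O2 (0.33, adjusted p = 0.0369). The causes of these differences were not tested. Groups of 3 libraries and the control shared by plasma and H2O2 limit the precision, and genes near the limits of the rule enter or leave with small changes in scaling.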
